A study of Mus musculus with 6 samples.

Results

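The insulin-like growth factor (IGF) system described here comprises 10 genes chosen by name: the ligand gene Igf1, the receptor genes Igf1r and Insr, the binding protein genes Igfbp2, Igfbp3, Igfbp4, Igfbp5, Igfbp7 and Igfbpl1, and the RNA-binding protein gene Igf2bp3. Each had 1 entry among the 23290 of the authors' deposited table, all 10 entries were tested, and all 10 stood above 1 FPKM in both genotypes. FPKM is the number of sequenced fragments scaled by transcript length and library size, so levels can be compared between genes.

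Total RNA was sequenced from single mouse embryonic hearts at E10.5 on a C57BL/6 background. The 3 control embryos were Nkx2-5+/+ with 1 floxed and 1 wild-type Casz1 allele (Casz1f/+), and carried no Cre. The 3 mutant embryos were Casz1f/f and carried Cre at 1 Nkx2-5 allele (Nkx2-5Cre/+), so that Casz1, a zinc finger transcription factor gene, is meant to be deleted only in cells with Nkx2-5-driven Cre and their descendants. All 6 embryos thus carried a floxed allele, and the genotypes differ at Nkx2-5 as well as at Casz1. The authors deposited 1 FPKM value per genotype over its 3 hearts. The value of each heart, the spread between hearts and the sequencing depth are therefore unknown here, and whether hearts of the 2 genotypes overlap cannot be seen. The standard error (SE) and 95% interval of each log2 fold change below are those implied by the authors' test statistic. In whole hearts, fewer cells of a type and less RNA per cell cannot be told apart.

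IGF1 and IGF2 are secreted peptides that signal through the tyrosine kinase receptor encoded by Igf1r and through insulin receptors encoded by Insr. The receptor kinases act on adaptor proteins that feed the PI3K, AKT and mTOR arm and the RAS and MAPK arm, which promote growth, survival and division. Secreted binding proteins hold the ligands in tissue and fluid and can lengthen their life or keep them from the receptor. In the midgestation heart, IGF2 from the epicardium and endocardium is known as a growth signal to cardiomyocytes.

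The labelled tissue matched its defining markers. In the authors' deposited table the cardiac troponin T gene Tnnt2 read 1975 FPKM in controls and 1974 FPKM in mutants, and the 9 tested cardiomyocyte markers summed to 22027 and 22329 FPKM, while Myh6, Myh7 and Actc1 held too many fragments for a value. Without Myl7, which read 5080 and 7496 FPKM, the sums were 16947 and 14834 FPKM. Casz1 read 6.61 FPKM in controls and 4.68 FPKM in mutants, with q = 1.00 in that table. Nkx2-5 read 143.0 and 82.9 FPKM (q = 0.536 in the authors' deposited table). Neither targeted gene passed the authors' threshold of q under 0.05.

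One gene of the IGF system was called as changed between the genotypes. Igfbpl1 fell in the mutant hearts to 36.4% of its control level, and the other 9 genes were not called. Over all tested genes in the authors' deposited table, the share called was 0.422%, 0.117% lower and 0.305% higher. Log2 fold changes of the 10 genes lay below 0 for 5 and above 0 for 5, with a median of 0.02. Among all 15301 tested genes with a finite fold 54.7% lay below 0, with a median of -0.02. Absolute log2 fold changes were under 0.25 for 9 of the 10 genes. The same held for 83.7% of the 12150 genes with a finite fold that reached 1 FPKM in either genotype. The 9 genes that were not called had folds from 1.03 to 1.19 and unadjusted p values of 0.387 or more in the authors' deposited table.

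**Figure D1:**
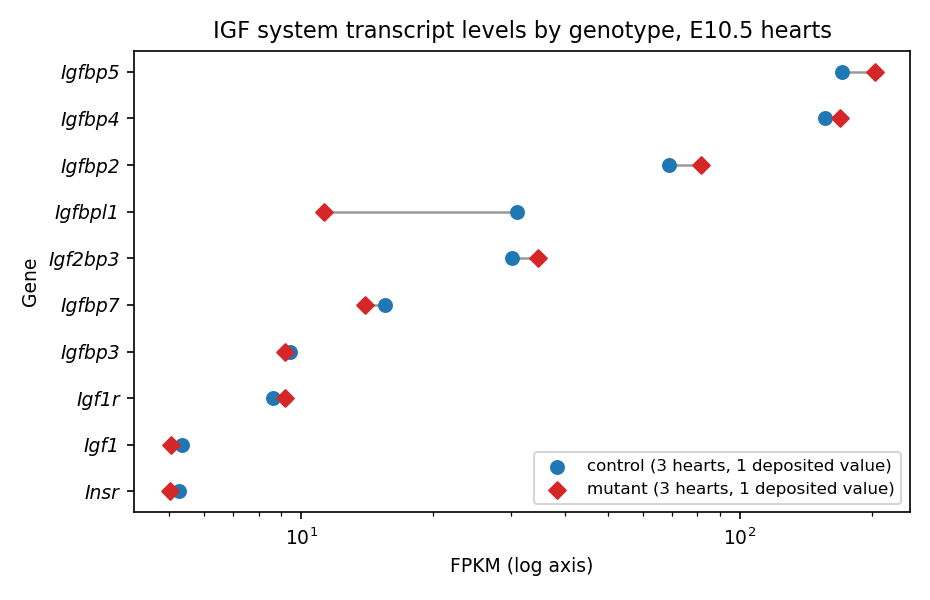
Levels of the 10 IGF system genes in FPKM on a log axis, with 1 deposited value per genotype over 3 hearts. The control and mutant points nearly coincide for most genes, whereas Igfbpl1 moves from 31.0 FPKM in control (circle) to 11.3 FPKM in mutant hearts (diamond).

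Igfbpl1 encodes a secreted protein related to IGFBP7, with an IGF-binding type domain followed by a Kazal-type and an immunoglobulin-like domain. It is known from neural progenitors and the retina. In the authors' deposited table Igfbpl1 read 31.0 FPKM in controls and 11.3 FPKM in mutants. This 2.75-fold lower level corresponds to a log2 fold change of -1.46 (SE 0.294, 95% interval -2.04 to -0.88) with p = 7.17e-07 and q = 0.000425 in the authors' deposited table. The control hearts had the higher value, and the interval lies wholly below 0. Its level exceeded that of 83.0% of tested genes in control hearts and 62.1% in mutant hearts. Among the 10 genes it ranked 4 by level in control and 6 in mutant hearts. Of the 9 genes called lower that stayed above 1 FPKM in both genotypes, Igfbpl1 had the third highest control level and the fifth largest fold. Among all 11796 genes above 1 FPKM in both genotypes, 20 had a lower log2 fold change.

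Igfbpl1 has 5 exons and lies on the minus strand of chromosome 4 from 45809507 to 45826827 in mm10. This is the chromosome of Casz1, which begins 103 Mb further along. Aldh1b1, a mitochondrial aldehyde dehydrogenase gene, is the nearest named entry before it and read 31.6 FPKM in controls and 23.8 FPKM in mutants. The log2 fold change of Aldh1b1 was -0.41 (95% interval -0.98 to 0.17, q = 1.00) in the authors' deposited table. Stra6l, the nearest named entry after it, was marked too low for a test, at 0.0684 and 0.0323 FPKM. Within 1 Mb of Igfbpl1, 22 other tested genes, Aldh1b1 among them, reached 1 FPKM in either genotype. None of these was called by the authors' test, and their log2 fold changes ranged from -0.58 to 1.67 with a median of 0.00.

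The fall of Igfbpl1 was set against each of the other 9 genes as a difference of log2 fold changes, with an interval that treats their errors as independent. This is a description, since Igfbpl1 was known to be called, and no p is given. The difference ranged from -1.30 against Igfbp7 to -1.71 against Igfbp2, whose 95% interval ran from -2.51 to -0.90. Against Igfbp5 it was -1.70 (-2.69 to -0.72) and against Igf1r it was -1.54 (-2.35 to -0.74). For 8 of the 9 genes the interval lay below 0. The exception was its relative Igfbp7, with an interval from -3.18 to 0.58, since the SE of Igfbp7 is wide. Of the 36 pairs without Igfbpl1, 0 had an interval that left out 0, and the widest difference was 0.40.

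**Figure D2:**
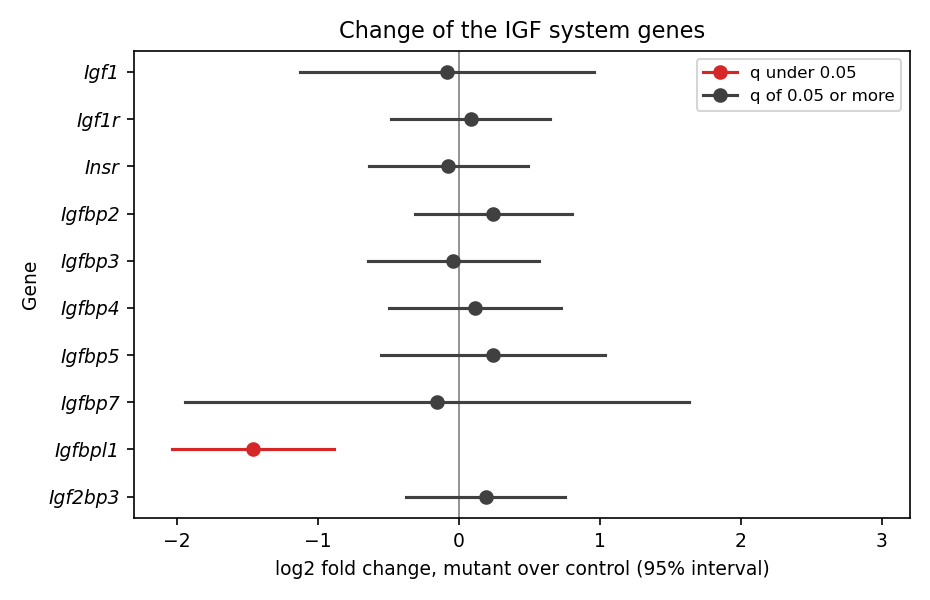
Log2 fold change of each gene, mutant over control, with its 95% interval implied by the authors' test statistic. The interval of Igfbpl1 (red) lies wholly below 0, while those of the other 9 genes (grey) cross 0, with the widest for Igfbp7 and Igf1.

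The binding protein genes Igfbp5, Igfbp4 and Igfbp2 were the 3 most abundant of the 10 genes, and none was called. Igfbp5, whose product binds IGFs and extracellular matrix, read 171 FPKM in controls and 203 FPKM in mutants. The change on the log2 scale was 0.24 (SE 0.406, 95% interval -0.55 to 1.04, p = 0.548) in the authors' deposited table. Igfbp4, known mainly as an inhibitor of IGF action and a target of the pappalysin protease, read 156 and 169 FPKM. This gene had a log2 fold change of 0.12 (95% interval -0.50 to 0.73) in the authors' deposited table. Igfbp2, abundant in embryonic tissues, read 68.8 FPKM in controls and 81.6 FPKM in mutants. The log2 fold change of Igfbp2, at 0.25 (SE 0.285, 95% interval -0.31 to 0.81, p = 0.387), was the highest of the 10 in the authors' deposited table. All 3 stood higher in the mutant column by less than their error.

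Igfbp5 and Igfbp2 are neighbours on chromosome 1, from 72858065 to 72874865 and from 72824480 to 72852471, on opposite strands with their 3′ ends 5.59 kb apart. Their log2 fold changes in the authors' deposited table were 0.24 and 0.25. Igfbp4 lies on chromosome 11 from 99041260 to 99052643. Each of the 3 genes has 4 exons.

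The sequence before the start of these 3 genes is shown because they supply most of the binding protein transcripts. RefSeq promoter sequences (GRCm38.p6) matched 8 of the 10 genes, not Igfbpl1 and Insr. Printed are the 100 bases before the transcription start, 5′ to 3′ on the gene's strand, at chr1:72874866-72874965 (minus strand) for Igfbp5, chr11:99041144-99041243 (plus strand) for Igfbp4 and chr1:72824380-72824479 (plus strand) for Igfbp2. Capitals mark TATA-type letters, searched after the sequences were seen as TATAAA on both strands, TATATA and TTTAAA.
Igfbp5: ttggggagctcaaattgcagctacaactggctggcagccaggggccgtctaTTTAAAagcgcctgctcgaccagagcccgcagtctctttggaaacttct
Igfbp4: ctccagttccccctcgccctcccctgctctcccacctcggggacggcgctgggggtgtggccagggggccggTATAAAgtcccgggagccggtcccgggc
Igfbp2: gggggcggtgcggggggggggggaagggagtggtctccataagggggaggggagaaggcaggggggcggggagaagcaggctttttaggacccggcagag
The match began 49 bases before the start in Igfbp5 and 28 bases before it in Igfbp4, and these letters are not in the Igfbp2 window. Distances are counted from the start used by the RefSeq promoter sequences, and other annotations place it elsewhere. GENCODE starts Igfbp5 at 72874884, inside the printed window, and the deposited Igfbp4 entry begins at 99041260. The 8 genes have 9 such sequences, since Igfbp2 has a second at chr1:72825287-72825386, also without these letters. Of the 9 sequences 3 held a match, the third being that of Igfbp3 with TATATA 30 bases before its start. In all 32851 promoters of the same length 10.9% held one of the motifs. The series holds no measurement of binding at these sites, and a match is a description of the letters only.

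Igfbp3 and Igfbp7 were expressed at lower levels. Igfbp3, the main carrier of IGFs in adult blood, read 9.40 FPKM in controls and 9.15 FPKM in mutants. The log2 fold change of Igfbp3 was -0.04 (SE 0.309, 95% interval -0.64 to 0.57) in the authors' deposited table. It lies on chromosome 11 from 7206091 to 7213923, 3.54 kb from Igfbp1. Igfbp7, a matrix and vascular protein that binds IGFs weakly, read 15.5 and 14.0 FPKM. Its log2 fold change of -0.16 had an SE of 0.912 and a 95% interval from -1.94 to 1.63 in the authors' deposited table, so a change as large as that of Igfbpl1 would not have been detectable for it. The Igfbp7 entry spans chromosome 5 from 77310484 to 77408045, joins 2 RefSeq transcripts and overlaps Polr2b on the opposite strand. No source used here states whether the authors' counting used strand, so reads of the overlapping genes may not be told apart. Polr2b itself read 25.4 and 25.6 FPKM.

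Summed over Igfbp1 to Igfbp7, binding protein transcripts came to 421 FPKM in controls and 477 FPKM in mutants, a ratio of 1.13. The log2 ratio was 0.18, with an SE of 0.211 propagated from the single genes, so the sums differ by less than their error. Igfbp5, Igfbp4 and Igfbp2 made up 94.0% of the sum in control and 95.1% in mutant hearts. Igfbp5 alone gave 40.6% and 42.5%, Igfbp4 37.1% and 35.5%, and Igfbp2 16.3% and 17.1%. Igfbp7 contributed 3.69% and 2.93%, and Igfbp3 2.23% and 1.92%. Igfbp1 and Igfbp6, which are not among the 10 genes, were near 0.2 FPKM and were not called. The carrier subunit gene Igfals was too low for a test. Igfbpl1, counted outside this sum, stood 5.52-fold below Igfbp5 in control and 18.0-fold below it in mutant hearts.

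**Figure D3:**
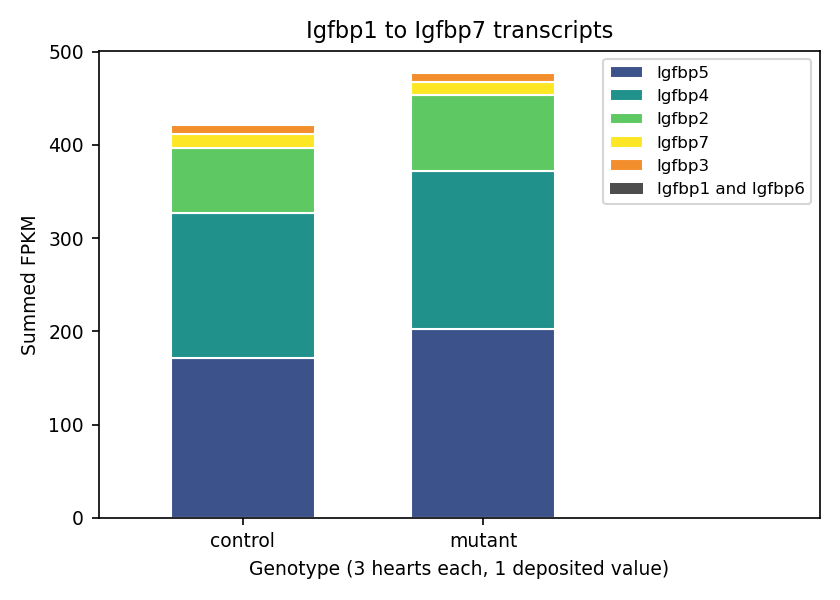
Summed FPKM of Igfbp1 to Igfbp7 in each genotype, stacked by gene, with 1 deposited value per genotype over 3 hearts. Igfbp5, Igfbp4 and Igfbp2 fill 94.0% of the control bar and 95.1% of the mutant bar, and Igfbp1 and Igfbp6 are too low to be visible.

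Among the ligand genes only Igf1 had a usable value. Igf1 read 5.34 FPKM in controls and 5.03 FPKM in mutants, a log2 fold change of -0.08 (SE 0.532, 95% interval -1.13 to 0.96, p = 0.873) in the authors' deposited table. It lies on chromosome 10 from 87859056 to 87937047, its entry joins 5 RefSeq transcripts, and the antisense gene Igf1os overlaps it. Igf2, the imprinted fetal growth ligand on chromosome 7, was marked by the authors as holding too many fragments. Its listed 0 in both genotypes is a placeholder and says nothing of its level. The insulin genes Ins1 and Ins2 were too low for a test, with Ins1 listed at 0 in both genotypes. The ligand side of the system can therefore be read only for Igf1.

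The receptor genes differed little between the genotypes. Igf1r, on chromosome 7 from 67952257 to 68233667 with 21 exons, read 8.64 FPKM in controls and 9.16 FPKM in mutants. The change on the log2 scale was 0.09 (SE 0.286, 95% interval -0.48 to 0.65, p = 0.766) in the authors' deposited table. Insr, on chromosome 8 from 3150922 to 3279617, read 5.27 and 5.00 FPKM. The log2 fold change of Insr was -0.07 (SE 0.288, 95% interval -0.64 to 0.49, p = 0.799) in the authors' deposited table. Both intervals exclude a fold as large as that of Igfbpl1 in either direction. The ratio of Igf1r to Insr was 1.64 in control and 1.83 in mutant hearts. Igf2r, which encodes the receptor that carries IGF2 to lysosomes and does not signal as a kinase, read 233 and 216 FPKM, 26.9-fold and 23.6-fold the level of Igf1r. It was not called (log2 fold change -0.11, SE 0.473 in the authors' deposited table). The insulin receptor-related gene Insrr was too low for a test.

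Igf2bp3, an RNA-binding protein gene of embryonic and tumour tissue whose product binds Igf2 transcripts, read 30.2 FPKM in controls and 34.6 FPKM in mutants. This gene had a log2 fold change of 0.19 (SE 0.287, 95% interval -0.37 to 0.76, p = 0.501) in the authors' deposited table. In control hearts its level was next to that of Igfbpl1, and in mutant hearts it was 4 in rank. Igf2bp3 lies on chromosome 6 from 49085218 to 49214954, and Malsu1 overlaps it on the opposite strand, at 23.8 and 26.3 FPKM. Its paralogs Igf2bp1 and Igf2bp2 read 95.1 and 41.8 FPKM in control hearts and 86.9 and 41.8 FPKM in mutant hearts. Neither was called, and the authors' statistic for Igf2bp1 implies an SE of 119, which leaves its fold without a usable error. Of the oncofetal RNA genes 0 of 4 tested were called, beside a share of 0.422% over all tested genes. Lin28a, an inhibitor of let-7 microRNA processing, read 3.40 and 5.86 FPKM (log2 fold change 0.79, p = 0.0274, q = 1.00 in the authors' deposited table). The chromatin genes Hmga1 and Hmga2 read 329 and 342 FPKM, and 61.8 and 69.9 FPKM.

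By level the 10 genes spanned a 32.5-fold range in control hearts, from 5.27 FPKM for Insr to 171 FPKM for Igfbp5. The order in control hearts was Igfbp5, Igfbp4, Igfbp2, Igfbpl1, Igf2bp3, Igfbp7, Igfbp3, Igf1r, Igf1 and Insr. In mutant hearts Igf2bp3 and Igfbp7 stood above Igfbpl1, and Igf1r above Igfbp3. With no value per heart, neighbours in this order such as Igfbp5 and Igfbp4, Igfbpl1 and Igf2bp3 in control hearts, or Igf1 and Insr cannot be separated by their spread.

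The precision behind these values differed between genes. For the 8 genes with 1 RefSeq transcript in their entry the SE ran from 0.285 to 0.406. Igf1, with 5 transcripts, had an SE of 0.532, and Igfbp7, with 2, had 0.912. Over the 12150 genes with a finite fold that reached 1 FPKM in either genotype the median SE was 0.317. It was 0.310, 0.333 and 0.343 for entries with 1, 2 and 3 or more transcripts. At the smallest test statistic of any called gene (3.73), Igfbp2 would have needed a 2.09-fold change to be called, Igfbp5 a 2.86-fold change and Igfbp7 a 10.6-fold change. Smaller changes of these genes were below detection in this design.

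The rest of the pathway held a single called gene. Of 82 other pathway genes 81 were matched and 72 were tested, of which 1 rose, 0 fell and 71 were not called in the authors' deposited table. The share called over all tested genes was 0.422%. Their median log2 fold change was -0.04, with 45 below 0 and 27 above. Irs4, an insulin receptor substrate gene on chromosome X from 141710998 to 141725217, rose from 0.0194 to 0.267 FPKM. The change on the log2 scale was 3.79 (SE 0.806, 95% interval 2.21 to 5.36, q = 0.00130) in the authors' deposited table. Both levels lie under 1 FPKM, and with 1 FPKM added to both values the log2 fold change of Irs4 was 0.31. The broadly expressed substrate genes Irs1 and Irs2, chosen here after their values were seen, read 6.50 and 6.85 FPKM, and 4.76 and 4.80 FPKM.

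Genes of both kinase arms downstream of the receptors had log2 fold changes near 0, as most expressed genes did. Of the genes with a finite fold that reached 1 FPKM in either genotype, 83.7% had an absolute log2 fold change under 0.25. The share called over all tested genes was 0.422%, so 0 calls in lists this small do not set them apart. In the PI3K, AKT and mTOR arm 0 of 24 tested genes were called, with log2 fold changes from -0.26 to 0.09 and a median of -0.05. Akt1 read 127 and 113 FPKM, and the translation inhibitor gene Eif4ebp1, a target of mTOR, read 156 and 153 FPKM. In the RAS and MAPK arm 0 of 11 were called, from -0.17 to 0.14, and Map2k2, a kinase gene of this arm, read 72.0 and 79.1 FPKM. None of these 35 genes had an unadjusted p under 0.05 in the authors' deposited table. Among the 10 receptor adaptors Irs4 was the only call, and Sh2b2, also under 1 FPKM, read 0.571 and 0.942 FPKM. Grb10, an imprinted inhibitor of the receptors, read 295 and 237 FPKM (log2 fold change -0.31, SE 0.441 in the authors' deposited table), and Grb2 read 35.3 and 35.0 FPKM. In the growth hormone axis, which drives Igf1 after birth, 0 of 5 were called, and Ghr and Stat5b read 11.6 and 10.8 FPKM, and 11.7 and 10.7 FPKM.

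Genes that act on the binding proteins or share their domain were not called. With 0.422% of all tested genes called, 0 calls do not set these short lists apart. Of the proteases and their inhibitors 0 of 5 tested passed. Htra1, a secreted protease, read 5.27 FPKM in controls and 3.49 FPKM in mutants (log2 fold change -0.59, SE 0.377, p = 0.115 in the authors' deposited table), and Adam12 read 3.54 and 3.72 FPKM. Of other genes with an IGFBP-type domain 0 of 8 tested passed. The matricellular genes Ccn1 and Ccn2 had log2 fold changes of 0.41 and -0.32 in the authors' deposited table, at 25.6 and 34.1 FPKM, and at 21.8 and 17.4 FPKM. Esm1, an endothelial proteoglycan gene, read 0.0299 and 0.109 FPKM (p = 0.0276, q = 1.00 in the authors' deposited table).

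**Figure D4:**
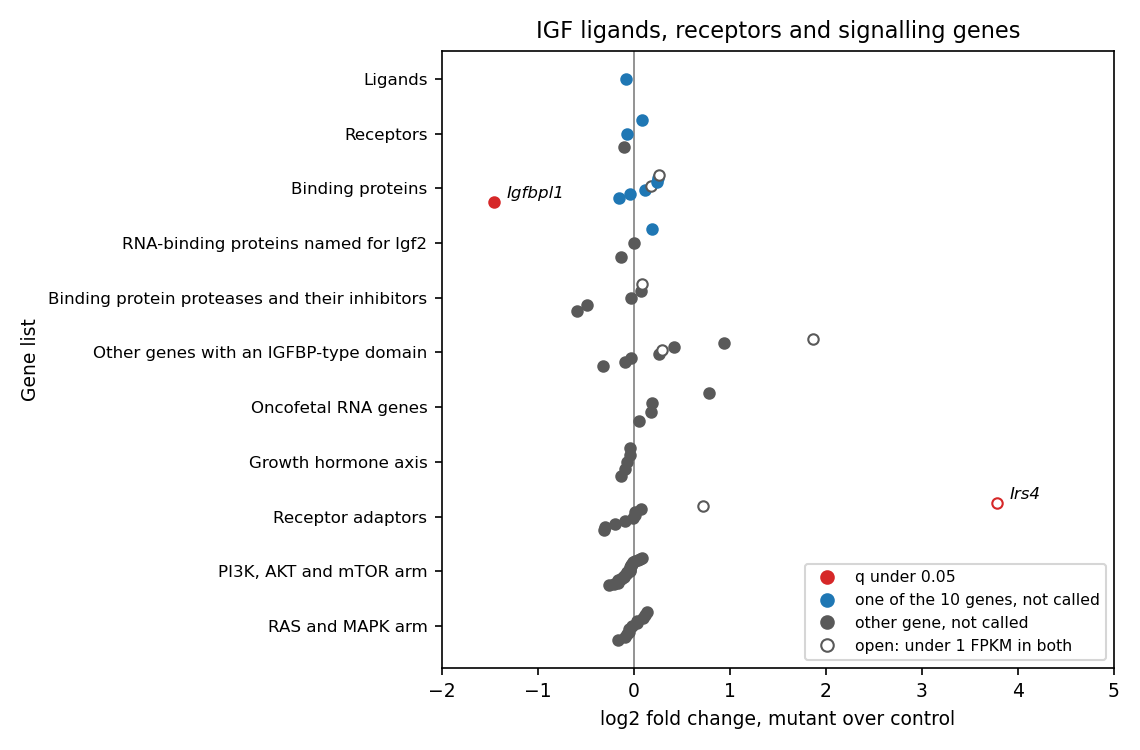
Log2 fold change, mutant over control, of every tested gene in the pathway lists. Called genes are red, those of the 10 IGF system genes that were not called are blue, and other genes are grey. Open points mark genes under 1 FPKM in both genotypes. The called genes are Igfbpl1 at -1.46 and Irs4 at 3.79. Esm1, not called and under 1 FPKM in both genotypes, lies at 1.86. The PI3K, AKT and mTOR genes lie between -0.26 and 0.09.

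Markers of other cell types moved in the same pooled comparison, in which 0.422% of all tested genes were called. The 10 foregut and pharyngeal endoderm markers summed to 4.16 FPKM in controls and 21.6 FPKM in mutants, and 7 of them were called higher. Smooth muscle markers summed to 471 and 885 FPKM over 5 usable genes, a sum set mainly by Tagln, at 333 and 767 FPKM and not called (q = 0.411 in the authors' deposited table). The other 4 summed to 137 and 119 FPKM, with Cnn1 at 132 and 96.0 FPKM. The 2 called genes, Actg2 and Lmod1, were higher at 7.72 and 14.2 FPKM in mutants. Myh11 read only 0.326 and 0.931 FPKM and was not called. Which cells of the whole heart hold the Tagln and Cnn1 transcripts was not tested. Neuronal markers summed to 20.4 and 29.4 FPKM and neural crest markers to 23.7 and 38.3 FPKM, with 0 called among 6 and 5 tested. Isl1 moved the neuronal sum most, at 4.00 and 8.21 FPKM, and the other neuronal markers summed to 16.4 and 21.2 FPKM. Crabp1 alone gave 21.3 and 35.5 FPKM of the neural crest sums. Among 8 tested macrophage markers Lyz2 was the 1 called gene, lower at 16.9 and 1.91 FPKM. The other macrophage markers were not called and summed to 5.94 and 4.96 FPKM, against 22.8 and 6.87 FPKM with Lyz2. Endothelial and endocardial markers summed to 332 and 296 FPKM, epicardial markers to 151 and 144 FPKM, and cushion mesenchyme markers to 230 and 227 FPKM, with 0 called in each list. Hepatic markers summed to 62.0 and 49.2 FPKM and erythroid markers to 255 and 272 FPKM, also with 0 called. No marker with a usable value was listed at 0 in either genotype. The part of these cell types in the levels of Igfbpl1 and Irs4 was not tested.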

How the data were processed

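RNA-seq of 6 E10.5 hearts (3 per genotype) was read from 1 table that the authors deposited. Per the submitters' processing notes the tools were Cuffdiff, Cufflinks 2.1.1, TopHat2 2.0.8 with Bowtie2 2.1.0.0, FastQC 0.10.1 and SAMtools 0.1.19.0, and the build was mm10. The authors gave FPKM, 1 value per genotype. The deposited log2 fold change and test statistic are scores given by the authors, and the p-values and q-values are also theirs. The library normalization was not given in the sources used here, and depth per heart is unknown. Of 23290 entries 15387 were tested, 7742 were too low, 96 failed and 65 held too many fragments. Another 0 columns of per-sample values went unused.

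Symbols came from RefSeq identifiers (RefSeq and GENCODE tables, GRCm38), which named 99.3% of entries. The rule took 1 entry per gene, tested entries first. The deposited p equalled a two-sided normal p of that statistic to within 2.82e-06 over 15301 genes with a finite fold, so the SE is the fold change divided by that statistic. Another 86 tested entries stood at 0 in 1 genotype and have no fold. Coordinates count from 1. Genes were named by a written rule: all 10 members, and of each pathway list the called genes (otherwise those with p under 0.05), the 2 most abundant and the untested ones. H19 was not matched, and 1 gene that the rule takes is not reported here. Members and lists were chosen with earlier results of these data known. P-values rest on 3 biological replicates per genotype. The calculation was tested on simulated data drawn from the same normal model. That test checks the arithmetic only and cannot show whether the implied SE holds for these hearts. Alternatives covered the q threshold, an FPKM filter, a minimum fold, pseudocounts and centring. Python 3.11.15, numpy 2.4.6, pandas 2.3.3, scipy 1.17.1 and matplotlib 3.10.9 were used.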

Additional observations from a re-analysis of the deposited data

How the results depend on the processing

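Igfbpl1 was the 1 gene of the system called at q under 0.1 and 0.01, with a minimum fold of 1.5, and with the adjustment recomputed over 12224 genes that reached 1 FPKM in either genotype (q = 0.000419). Its log2 fold change ranged from -1.45 to -1.38 over pseudocounts of 0.1 and 1 FPKM and centring on the median of expressed genes (-1.44), and 5 of the 10 genes lay below 0 under each of these. The log2 ratio of the binding protein sum was 0.13 without Igfbp5 and 0.15 after dividing by the FPKM summed over all tested genes. Of the other pathway genes, the count called went from 1 to 0 under the filter of at least 1 FPKM, since Irs4 lies below it. Of 57 alternatives 56 kept their direction and side of the threshold or moved by less than the error. This tally is a weak check, since several alternatives could hardly come out otherwise. The smallest finite fold of any called gene was 2.29, so a minimum of 1.5 could drop none. Each of the 10 genes has 1 entry, so taking every entry changed nothing. The pseudocounts are small beside levels of 5.00 FPKM or more. No paired analysis was possible because the table holds 1 value per genotype and no column per heart, and leaving out single hearts was not run for the same reason. The depth per heart is unknown, and for Igf1, Igfbp7 and Igf2bp1 the error limits what can be said.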
